A study of Mus musculus with 2 samples.

Results

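The genes described here are 9 mouse regulators of growth and early progenitor state: Lin28a, Lin28b, Hmga1, Hmga2, Igf2bp1, Igf2bp2, Igf2bp3, Myc and Mycn. They were chosen by symbol under a rule that used none of their values, though earlier results of these data were known. The 13916 protein-coding genes of the authors' deposited table include 8 of the 9. Lin28a has no line there and counts as not detected. The study used photo-isolation chemistry, in which mRNA is reverse transcribed inside a tissue section with light-sensitive caged primers and ultraviolet light then frees the cDNA of a chosen area. It compared the distal with the proximal part of mouse limb-mesenchymal organoids to find transcripts enriched on either side.

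Both groups came from embryonic limb mesenchymal cells of Slc:ICR mice, grown as organoids for 48 h in medium with Fgf8b and Wnt3a. At day 2, 5 organoids from 4 cultures were frozen, so distal and proximal regions were areas of organoids under the same treatment. Sections of 10 µm were fixed in 4% PFA and the chosen areas received 365 nm light for 3 min (20x objective). Each group held 5 barcoded regions, which were pooled by side, giving 1 distal and 1 proximal library. The side of the organoid and the library therefore cannot be told apart. The labels do not say which region came from which organoid, so p-values measure the spread between regions. In such areas of tissue, fewer cells of a type and less RNA per cell cannot be told apart.

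Lin28 proteins bind the precursors of let-7 microRNAs and block their maturation, and let-7 in turn represses mRNAs with matching sites, among them those of Lin28, Hmga2 and the Igf2bp family. Hmga proteins bend and open AT-rich chromatin, and Igf2bp proteins bind mRNAs and alter their stability, transport and translation. Myc and Mycn are transcription factors that pair with Max and drive growth and division, and Mycn is needed for normal growth of limb mesenchyme.

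The let-7 sequences show the part that ties these genes together. Of the 11 mouse let-7 family names in RefSeq (GRCm38.p6), 10 share the seed GAGGUAG, and let-7j does not. The microRNAs themselves were not measured in this study. 4 mature sequences follow, 5′ to 3′, with the seed (bases 2 to 8) in capitals. The first 3 are printed for the shared seed and let-7j for its different one.
let-7a-5p: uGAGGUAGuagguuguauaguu
let-7g-5p: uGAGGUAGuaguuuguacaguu
miR-98-5p: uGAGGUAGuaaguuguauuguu
let-7j: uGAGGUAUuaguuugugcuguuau

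The longest annotated 3′ UTR of each member was searched on the transcript strand for CTACCTC, the reverse complement of the seed, and for the 8-base match CTACCTCA. The UTRs were those of GENCODE M21 on GRCm38. Lin28a held 2 of the 8-base matches, Igf2bp1 held 3, and Lin28b, Hmga2, Igf2bp2 and Igf2bp3 held 1 each. Hmga1, Myc and Mycn held none, although Hmga1 had 1 match of 7 bases. The matches of the members found in the table are printed below, each as 30 bases of the mRNA that end with the 8-base match in capitals. They show that the match is shared while the bases before it differ.
Lin28b (chr10:45381022-45381051, minus strand): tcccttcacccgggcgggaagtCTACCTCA
Hmga2 (chr10:120364224-120364253, minus strand): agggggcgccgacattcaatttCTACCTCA
Igf2bp1 site 1 (chr11:95961778-95961807, minus strand): aggcagtgctgtgcgaagtaaaCTACCTCA
Igf2bp1 site 2 (chr11:95959357-95959386, minus strand): tgggaaccagcagtgctattaaCTACCTCA
Igf2bp1 site 3 (chr11:95958763-95958792, minus strand): actacgagtataaatggatgaaCTACCTCA
Igf2bp2 (chr16:22059473-22059502, minus strand): gagaaaaacacacaaataaaagCTACCTCA
Igf2bp3 (chr6:49086787-49086816, minus strand): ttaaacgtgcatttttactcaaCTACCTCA

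The matches were read against UTRs of similar length, where the shorter of the 2 UTRs was at least 0.8 times as long as the longer one. Among the 512 genes with a UTR of about the length of that of Igf2bp1 (6337 bases), 0.586% held at least 3 of the 8-base matches. For the 2 in Lin28a the share was 0.339% of 2064 genes, and for the single matches it was 8.92% for Lin28b, 6.08% for Hmga2, 4.11% for Igf2bp2 and 4.64% for Igf2bp3. Hmga2 and Lin28b each carried a further 3 matches of 7 bases. Myc and Mycn have short UTRs of 466 and 913 bases, and genes of their lengths held an 8-base match in 1.74% and 2.64% of cases. A match is a description of the letters and shows no binding.

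**Figure D1:**
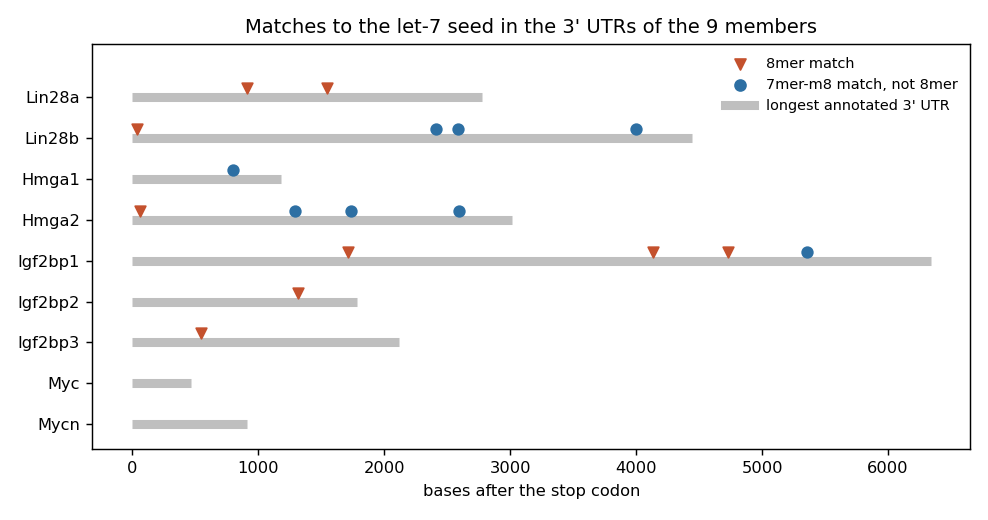
Each grey bar is the longest annotated 3′ UTR of 1 member, drawn to scale in bases after the stop codon, with triangles for 8-base matches to the let-7 seed and circles for matches of 7 bases only. The match nearest to a stop codon starts 36 bases after it in Lin28b and 58 bases after it in Hmga2, while Myc and Mycn carry no match.

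The table held 1 mean and 1 difference per gene, and no value per region. Whole counts per region were therefore worked back from the deposited mean, log2 change and standard error. Within the range searched, exactly 1 set of counts fitted for each of the 8 members. Regions could not be tied to the region numbers in the labels and are named here by their size factor, which scales with depth. The size factors were 0.832, 0.698, 0.559, 0.510 and 0.329 in distal and 2.42, 2.21, 1.96, 1.57 and 1.502 in proximal, so proximal regions were deeper by 3.30 times in sum. Total depth was thus near 46991 to 118978 counts in a distal region and 214774 to 345649 counts in a proximal one. Counts divided by the size factor are called normalized counts, and values are given from the largest to the smallest size factor on each side.

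None of the 8 members differed between the sides at an adjusted p under 0.05, where 0.977% of all genes did (136 of 13916). None had an unadjusted p under 0.05 either, a level that 6.07% of all genes passed (2.56% toward distal and 3.51% toward proximal). In the authors' deposited table the adjusted p was 0.991 for 7 members and higher still for Lin28b. Of the genes with a mean of at least 10, 3.03% were called (1.36% toward distal and 1.68% toward proximal), and the 4 members in that range (Igf2bp2, Hmga2, Igf2bp1 and Igf2bp3) were not. All 4 of these had log2 changes on the proximal side of 0, with a median of -0.20 against 0.00466 for all 3757 genes in that range.

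**Figure D2:**
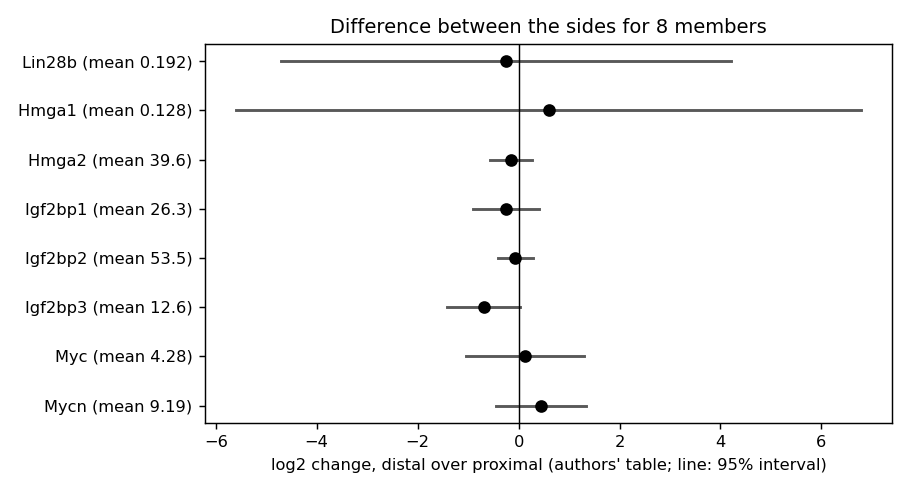
Points are the log2 changes of the 8 members in the authors' deposited table (distal over proximal, on a log2 axis), lines are 95% intervals from the deposited standard errors, and each name carries the mean normalized count. Every interval includes 0, from the narrow one of Igf2bp2 (-0.41 to 0.29) to those of Lin28b and Hmga1, which span several log2 units on either side.

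Lin28b, the Lin28 paralog with a line in the table, was at the edge of detection. It had 4 counts in all: 2, 1 and 1 in the proximal regions with size factors 2.42, 2.21 and 1.57, and 0 in the other 2 proximal and in all 5 distal regions. At the summed distal depth, 3 counts correspond to a level of 1.02, which lies above the proximal level of 0.414, so a difference was not detectable at this depth. The authors' deposited table gives Lin28b a mean of 0.192 and a log2 change of -0.25 ± 2.28 (SE).

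Hmga1 was no better covered. Its 2 counts both fell in the proximal region with size factor 1.57, and the other 9 regions had 0. The authors' deposited table nevertheless lists a log2 change of 0.60 ± 3.16 (SE) for Hmga1, that is, on the distal side. This sign runs against the counts, and the refit that returned the same value holds fitted counts at or above 0.5. Both sides were at or under 3 counts, so no fold is given for Hmga1. Hmga1b, a second gene for the same protein family whose transcript shares its last 300 bases with Hmga1 at 100% identity, had 4 distal and 2 proximal counts. Reads of Hmga1 and Hmga1b could have been split or dropped in counting, and the values of both are uncertain.

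Hmga2, the family member known for its role in embryonic growth and as a let-7 target, was well covered with 522 counts. The normalized counts of Hmga2 were 36.1, 53.0, 39.4, 21.6 and 36.5 in distal and 50.9, 37.1, 42.4, 39.6 and 39.9 in proximal. The highest and the lowest regions of Hmga2 were both distal, and 3 of the 5 distal regions lay under the lowest proximal value. The means were 37.3 ± 11.2 in distal and 42.0 ± 5.32 in proximal (SD, n = 5 regions each), with p = 0.373 in a two-sided exact permutation test. For Hmga2 the authors' deposited table gives a log2 change of -0.15 ± 0.21 (SE), with an interval from -0.57 to 0.27. Without the distal region with size factor 0.698, its highest, the log2 ratio of the Hmga2 means was -0.33 (exact permutation p = 0.0317, unadjusted, where 0.0159 is the smallest possible). Without the one with size factor 0.510, its lowest, the log2 ratio was -0.0262 (exact permutation p = 0.746), and without the proximal region with size factor 2.42 it was -0.0923.

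Igf2bp2, an RNA-binding protein that stays on in adult tissues more than its paralogs do, had the highest counts of the members, 674 in all. The normalized counts of Igf2bp2 were 56.5, 55.8, 41.2, 47.0 and 60.9 in distal and 49.6, 52.5, 50.1, 67.6 and 53.9 in proximal. The sides overlapped, with 2 distal regions under the lowest proximal value and 1 proximal region, at 67.6, above every distal one. Igf2bp2 averaged 52.3 ± 7.99 in distal and 54.8 ± 7.42 in proximal (SD, n = 5 each), with an exact permutation p of 0.619. Its deposited interval was the narrowest among the members, and in the authors' deposited table the log2 change of Igf2bp2 was -0.06 ± 0.18 (SE). The sign of this small difference turned when a single region was left out: the log2 ratio of means was 0.0078 without the distal region with size factor 0.559 and 0.0206 without the proximal region with size factor 1.57.

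Igf2bp1, the paralog with the most let-7 matches, was uneven among the distal regions. The normalized counts of Igf2bp1 were 31.2, 40.1, 5.37, 31.4 and 9.13 in distal and 35.2, 32.1, 26.1, 23.6 and 29.3 in proximal. The distal regions with size factors 0.559 and 0.329 had 3 counts each, far under every proximal region, while the other 3 distal regions lay above 3 of the 5 proximal ones. The Igf2bp1 means were 23.4 ± 15.3 in distal and 29.3 ± 4.61 in proximal (SD, n = 5 each, exact permutation p = 0.421). Their log2 ratio of -0.32 was -0.07 without the distal region with size factor 0.559, -0.11 without the one with 0.329 and -0.60 without the one with 0.698. It was -0.63 on the log2(normalized count + 1) scale and -0.20 with 1 mean size factor for each side, and no p was under 0.05. The authors' deposited table gives Igf2bp1 a log2 change of -0.25 ± 0.33 (SE), with an interval from -0.90 to 0.40.

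Igf2bp3, a paralog found mainly in embryos and tumours, came nearest to a difference. The normalized counts of Igf2bp3 were 9.61, 2.86, 8.95, 13.7 and 15.2 in distal and 15.3, 12.7, 17.9, 17.2 and 12.6 in proximal. In 3 of the 5 distal regions Igf2bp3 lay under the lowest proximal value, and the other 2 lay within the proximal range. The means were 10.1 ± 4.83 in distal and 15.1 ± 2.47 in proximal (SD, n = 5), with a two-sided exact permutation p of 0.0635. Pooled over regions, Igf2bp3 had 27 distal and 146 proximal counts, a proximal level 1.64 times the distal one (95% exact binomial interval 1.08 to 2.57, which covers counting error only). For Igf2bp3 the authors' deposited table gives a log2 change of -0.69 ± 0.37 (SE), with p = 0.0612 before and 0.991 after adjustment over all genes.

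The Igf2bp3 difference depended on single regions. The exact permutation p, unadjusted, was 0.0476 without the distal region with size factor 0.510 and also 0.0476 without the one with size factor 0.329, at log2 ratios of -0.73 and -0.79. Without the distal region with size factor 0.698, the lowest for Igf2bp3, the log2 ratio shrank from -0.59 to -0.35 (exact permutation p = 0.127). The exact permutation p was between 0.0635 and 0.127 without any 1 of the other 7 regions. With 1 mean size factor for all regions of a side the log2 ratio was -0.71 (exact permutation p = 0.0397, n = 5 each). The last 300 bases of Igf2bp3 also lie in an overlapping transcript of its neighbour Malsu1, so some of its reads could have been assigned there or dropped.

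Mycn, the Myc paralog linked to limb mesenchyme, had 31 distal and 75 proximal counts. The normalized counts of Mycn were 10.8, 12.9, 5.37, 11.8 and 12.2 in distal and 11.2, 2.26, 9.20, 9.57 and 6.66 in proximal. In 3 distal regions Mycn lay above the highest proximal region, and 1 distal region, at 5.37, lay under the rest of its side. That value was 3 counts, where the other distal regions held 9, 9, 6 and 4. The means were 10.6 ± 3.02 in distal and 7.77 ± 3.48 in proximal (SD, n = 5), with an exact permutation p of 0.206. The pooled distal level of Mycn was 1.36 times the proximal one, with a 95% exact binomial interval from 0.866 to 2.10 for counting error only. The authors' deposited table gives Mycn a log2 change of 0.44 ± 0.45 (SE). Without the distal region with size factor 0.559, the log2 ratio of the Mycn means was 0.62 (exact permutation p = 0.0317, unadjusted). Without the proximal region with size factor 2.21, the lowest for Mycn, it fell from 0.45 to 0.21 (exact permutation p = 0.413).

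Myc was lower covered, with 14 distal and 42 proximal counts. The normalized counts of Myc were 6.01, 2.86, 8.95, 3.92 and 0 in distal and 3.72, 5.43, 6.13, 4.47 and 1.33 in proximal. The distal region at 0 was the shallowest of all, where 3 counts correspond to 9.13 and thus to more than any Myc value measured. The Myc means were 4.35 ± 3.36 and 4.22 ± 1.86 (SD, n = 5), with an exact permutation p of 0.944. The authors' deposited table gives Myc a log2 change of 0.13 ± 0.60 (SE), with an interval from -1.04 to 1.30. Mycl, another Myc family gene that is not a member and was picked out after its values were seen, had a deposited log2 change of 1.01 ± 0.53 (SE), and the authors' deposited table gives it an unadjusted p of 0.0559.

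**Figure D3:**
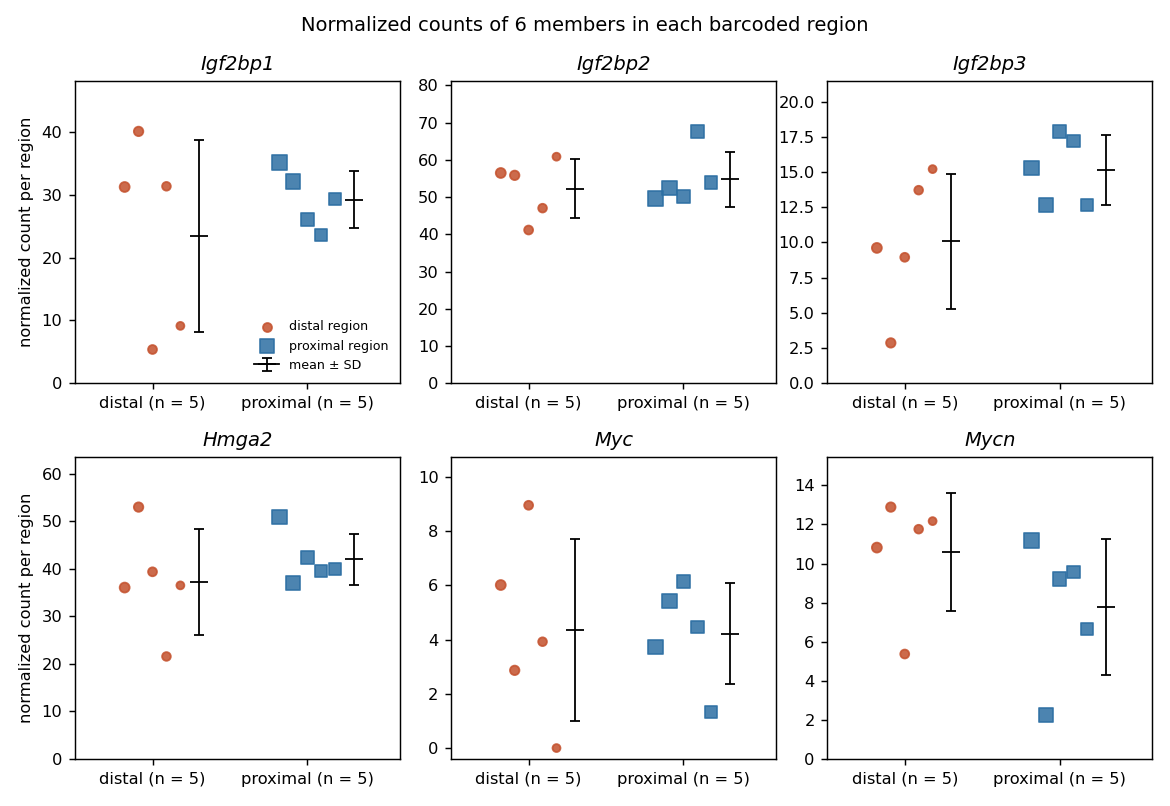
Points are normalized counts (linear axis) of 6 members in each of the 5 distal (circles) and 5 proximal (squares) regions, drawn larger for larger size factors, with mean ± SD beside them. The sides overlap in every panel, with 3 of 5 distal regions under all proximal ones for Igf2bp3 and also for Hmga2, and 3 of 5 above them for Mycn.

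Divided by the length of the longest coding transcript, the members spanned a wide range of levels. These values are mean normalized counts per kb over the 10 regions. The neighbouring pairs were set by ranking the same values, and the 10 regions came from 5 organoids of 4 cultures, so the paired p-values may be too small. Igf2bp2 was the most abundant at 13.7 ± 1.89 (SD) and Hmga2 followed at 10.4 ± 2.26. Igf2bp2 was above Hmga2 in 9 of 10 regions (paired exact permutation p = 0.00781, unadjusted over 7 neighbouring pairs). Hmga2 was above Mycn in 10 of 10 regions, with p = 0.00195, the smallest value this paired exact permutation test can give. Both genes thus stood apart from the rest of the members and above 92.3% of all genes on this scale.

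The middle of the order was not resolved on this scale. Mycn was at 3.44 ± 1.28 per kb, Igf2bp1 at 3.14 ± 1.32 and Igf2bp3 at 2.90 ± 1.03 (SD over 10 regions), and none of these neighbours differed beyond the spread (paired exact permutation p = 0.564 for Mycn against Igf2bp1 and 0.699 for Igf2bp1 against Igf2bp3). Myc, at 1.83 ± 1.10, did not pass against Igf2bp3 (paired exact permutation p = 0.0703) but was above Hmga1 in 9 of 10 regions (paired exact permutation p = 0.00391). Hmga1 at 0.0638 and Lin28b at 0.0355 per kb were not distinguished (paired exact permutation p = 1). Whether the library reads whole transcripts or only their ends is not given in the sources used here, and for end counts a division by length would not apply. Undivided, the mean normalized counts were 53.5 for Igf2bp2, 39.6 for Hmga2, 26.3 for Igf2bp1, 12.6 for Igf2bp3 and 9.19 for Mycn. The order of Igf2bp1, Igf2bp3 and Mycn thus depends on the division, and so does the wide gap under Hmga2.

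Likeness over the 10 regions was measured as Pearson's r of log2(normalized count + 1), only among genes with recovered region counts and a mean within 1.5 times that of the member. Hmga2 and Igf2bp2 were each other's only such partner, with r = 0.173. E2f6 (r = 0.577) and Tbx4 (r = 0.472) were most like Myc of 23 genes, and Mycl (r = 0.401) and Aurka (r = 0.304) most like Mycn of 19. Regions of a side share a library and depth, counts are sparse, and these values describe the regions only.

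The genes around the members were taken from lists of their known partners and targets. None of 17 listed genes of microRNA processing and let-7 decay was called, with a median log2 change of 0.02 beside 0.07 for all genes. The most abundant, Ago2, the slicing Argonaute protein, had a log2 change of 0.13 ± 0.15 (SE) in the authors' deposited table. Syncrip, an RNA-binding protein, had 0.02 ± 0.18 (SE) in the authors' deposited table. Trim71, an RNA-binding repressor of early embryos that let-7 itself targets, had 1 count in all.

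Among 24 other mRNAs known as let-7 targets, 2 were higher in distal and none was higher in proximal at an adjusted p under 0.05, beside 0.395% and 0.582% of all genes. At a mean of at least 10, which 11 of the 24 had, these shares were 1.36% and 1.68%. Both called genes code for parts of the G1 cyclin-dependent kinases. In the authors' deposited table Cdk6 had a log2 change of 1.23 ± 0.25 (SE, adjusted p = 0.000263) and Ccnd2 of 0.73 ± 0.13 (SE, adjusted p = 1.85e-05). The insulin-like growth factor receptor Igf1r had 0.49 ± 0.16 (SE) in the authors' deposited table, with an adjusted p of 0.146. The median of the 24 was 0.13, beside 0.07 for all genes.

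Across the table, 524 of 13833 genes with an annotated 3′ UTR (3.79%) held an 8-base let-7 match. Their median log2 change was -0.05, against 0.07 for genes without one, and at a mean of at least 10 the medians were -0.05 (141 genes) and 0.01. With matches of 7 bases included, the median of 1492 genes was 0.0026, and for the 27 genes with at least 2 of the 8-base matches it was 0.14. At a mean of at least 10 these medians were -0.02 (380 genes) and -0.57 (only 4 genes), so the sign for genes with at least 2 matches changed with coverage. Of these 524 genes, 1 was called higher in distal and 5 in proximal, where 55 and 81 of all 13833 genes with a 3′ UTR were. Over the whole table the shares were 0.395% and 0.582%, and with so few calls no lean to a side is read from them. Genes with a match had longer UTRs (median 2548 bases against 1192), so the comparison also compares UTR lengths.

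Of 11 other high mobility group genes, Hmgb1 was higher in distal, with a log2 change of 0.65 ± 0.17 (SE, adjusted p = 0.0162) in the authors' deposited table. Hmgb1 codes for an abundant DNA-bending protein, and many processed pseudogenes carry near-copies of its transcript end, so its count is uncertain. Hmgn1, which binds nucleosomes, had 0.31 ± 0.15 (SE, adjusted p = 0.869) in the authors' deposited table. Of these genes 9 had a mean of at least 10, and all 9 had log2 changes above 0, with a median of 0.10. Of all genes in that range, 50.6% were above 0 and 1.36% were called higher in distal, and 8 of the 9 were not called. The Hmgb1 call was lost at an adjusted p of 0.01 and when changes were centred on the median of all genes.

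No gene of the 22 Igf2bp partners and m6A proteins was called, and their median log2 change was 0.02. Pabpc1, the poly(A)-binding protein, had 0.09 ± 0.10 (SE) in the authors' deposited table. Hnrnpu, a nuclear RNA-binding protein found with Igf2bp1, had 0.26 ± 0.12 (SE, adjusted p = 0.663) in the authors' deposited table. None of 11 mRNAs known to be bound by Igf2bp proteins was called either. Actb, whose zipcode is bound by Igf2bp1, had 0.59 ± 0.21 (SE, adjusted p = 0.275) in the authors' deposited table. Igf2, for which the family is named, had a mean of 0.335 in the authors' deposited table, but its last 300 bases are shared with the overlapping gene Gm49394, so its reads could have been dropped and the value is uncertain.

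None of 22 partners, antagonists and turnover enzymes of Myc was called, with a median log2 change of 0.05. Skp2 and Huwe1, ubiquitin ligase parts that act on Myc, had 0.09 ± 0.20 and 0.16 ± 0.22 (SE) in the authors' deposited table. Of 29 genes known to be raised by Myc, 1 was called: Eif4a1, an RNA helicase of translation initiation, with 0.79 ± 0.22 (SE, adjusted p = 0.0295) in the authors' deposited table. A count of 1 in 29 is near the 3.03% of all genes called at a mean of at least 10, and this call too was lost at an adjusted p of 0.01 and with that centring. The abundant nucleolar gene Npm1 had 0.18 ± 0.14 (SE) and Cdk4 had 0.07 ± 0.22 (SE) in the authors' deposited table, and the 29 had a median of 0.11. The last 300 bases of Cdk4 are shared with the overlapping gene Tspan31, so some of its reads could have been dropped and its value is uncertain. Of 9 genes lowered by Myc none was called, among them the cell cycle inhibitors Cdkn1b at -0.16 ± 0.23 and Cdkn1c at -0.23 ± 0.48 (SE) in the authors' deposited table.

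The Myc and Max binding motif CACGTG, which reads the same on both strands, was searched in RefSeq promoters from 250 bases before to 50 after the start. It was present in 2 of the 7 members with a promoter entry, Lin28b and Igf2bp3, and in 6 of 25 Myc-raised genes. Of all 10989 genes of the table with a promoter entry 11.3% held it, of those with a mean of at least 10 it was 12.7%, and of all 32851 RefSeq promoters 7.15%. At a mean of at least 10, genes with and without the motif had median log2 changes of 0.0052 and 0.0074.

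**Figure D4:**
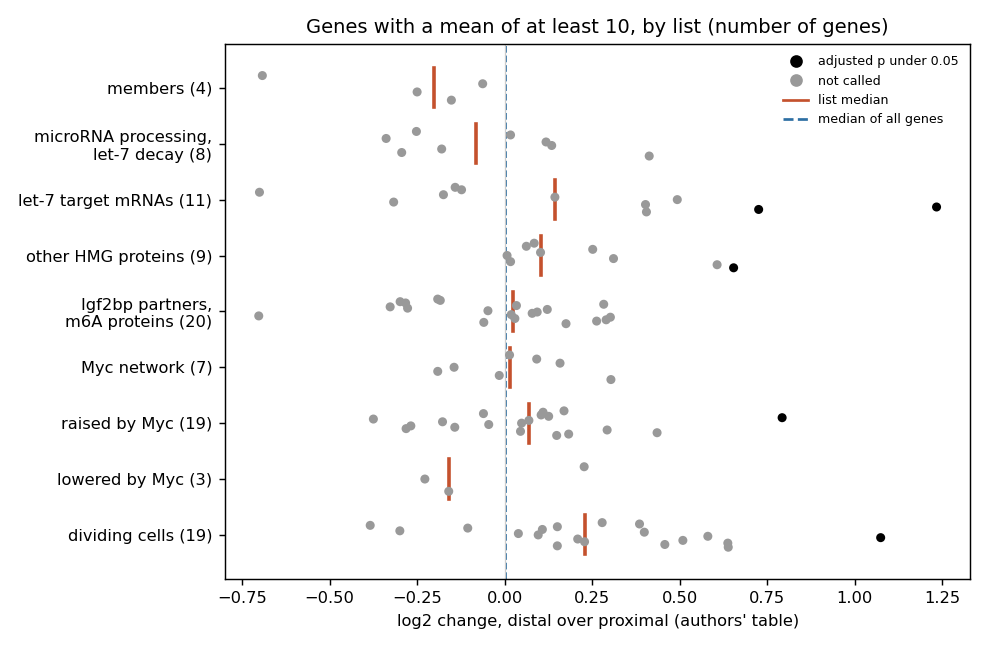
Each point is the log2 change of 1 gene with a mean of at least 10 (distal over proximal, authors' deposited table), by list, with the number of genes in brackets. Black points were called, orange bars are list medians and the dashed line is the median of all genes in that range (0.00466). The 4 members sit under 0 with no call, and the called genes are Cdk6, Ccnd2, Hmgb1, Eif4a1 and Mcm6.

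Markers of cell state and type were read beside the members. Of 20 markers of dividing cells, 1 was called, beside 0.977% of all genes and 3.03% of those with a mean of at least 10. As 19 of the 20 had such a mean, a count of 1 is near the second share. The called marker was Mcm6, part of the replication helicase. It was higher in distal at a log2 change of 1.07 ± 0.24 (SE, adjusted p = 0.00199) in the authors' deposited table. Of the 19 with a mean of at least 10, 16 were above 0, beside 50.6% of all 3757 genes in that range. All 12 limb mesenchyme markers were in the table, 10 of them with a mean of at least 10. Of the 12, 4 were called, beside the same shares of 0.977% and 3.03%: Msx1 and Lhx2 higher in distal, Pdgfra and Tbx5 higher in proximal. Of 11 muscle markers, 5 (Actc1, Myh3, Myl1, Myog and Tnnt1) were called higher in proximal, beside 0.582% of all genes. The 9 muscle markers with region counts summed to 0 to 7.84 normalized counts in the distal regions and to 25.5 to 55.6 in the proximal ones. Markers of ectoderm, blood and vessels, nerve and pluripotent cells had no calls, and Pou5f1, Krt5 and Gata1 had no line. The highest means in these lists were, in that order, 0.569, 2.16, 2.66 and 0.143. At such low means a lack of calls does not show that the sides were alike. The part of muscle cells or of dividing cells in the members' values was not tested.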

How the data were processed

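Distal and proximal regions of limb-mesenchymal organoids were profiled as 2 libraries of 5 barcoded regions each. Per the file headers, the authors deposited 1 DESeq2 results table with 13916 protein-coding genes. Its mean is a signal in normalized counts, averaged by the authors over all regions. Its log2 change (distal over proximal) and standard error, its score (their quotient), p-value and adjusted p were also made by the authors, per the file headers. The submitters' processing notes name mm10 and GRCm38, and the aligner and counting are not given in the sources used here. The members and lists were chosen with earlier results of these data known. The genes named are all members and, of each other list, its called genes and its 2 genes with the highest mean. Other genes are named after their values were seen. Some results that this rule would name are not reported here.

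A gene was called where its deposited adjusted p was under 0.05. The lowest means repeat on 10 steps, each 1 count divided by a region's size factor and by 10, with the side read from the authors' contrast. Whole counts that gave a gene's mean were listed within a set distance of the fitted side levels (squared distance of 60, 45 or 16 by level). They were refitted with a negative binomial model with a minimum fitted mean of 0.5, and accepted when the log2 change was within 1e-09 of the deposited one. These settings were adjusted while it was seen whether members matched. The number of matches that chance would give was 0.17 for Igf2bp2, 0.05 for Hmga2, 0.047 for Igf2bp1 and 0.0013 for Igf2bp3, so Igf2bp2 is the least certain. The search was tested on simulated counts at the levels of 6 members. The true set was the only match in 40 of 40 runs for Myc, 34 of 40 for Mycn and 10 of 12 for Igf2bp3. It was the only match in 3 of 4 runs for Igf2bp1 and in 4 of 4 for Hmga2 and for Igf2bp2. No run returned a single set that was wrong, but runs at the higher levels were few. All 97 list genes tried, with means under 10, had 1 match.

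Levels per region were compared with two-sided exact permutation tests for 6 members, where 0.00794 is the smallest p that 5 against 5 allows, and p-values over members are unadjusted. The E-box counts, the order per kb, the pooled ratios, the shares among similar UTRs and the copy search were chosen after the files were seen. A copy was a match of the last 300 bases over at least 200 bases at 95% identity. Tools were Python 3.11.15, numpy 2.4.6, scipy 1.17.1, pandas 2.3.3, numba 0.67.0 and BLAST 2.17.0. Identity between the member proteins was not analysed here.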

Additional observations from a re-analysis of the deposited data

Results flagged for a closer look

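In 2 of the 12 groups of 5 regions examined (6 members on each of 2 sides), 1 region stood far from the other 4, beyond Dixon's limit, which chance passes in about 1 in 20 groups. Igf2bp2 was at 67.65 normalized counts in the proximal region with size factor 1.57, where the other proximal regions lay between 49.6 and 53.9. Mycn was at 5.368 normalized counts in the distal region with size factor 0.559, where the other distal regions lay between 10.8 and 12.9. The Mycn value rests on 3 counts and the others on 9, 9, 6 and 4, so counting error is large in all of them.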

How the results depend on the processing

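No member was called at adjusted p thresholds of 0.01 or 0.1, with the p-values adjusted over the genes of the table or over those with a mean of at least 10, or with the log2 changes centred on either median. The 14 calls among list genes (7 in each direction) became 12 (5 distal, 7 proximal) at 0.01 and when centred on the median of all genes, losing Eif4a1 and Hmgb1 both times. With adjustment limited to means of 10 or more they became 12 (8 distal, 4 proximal), with Myl1, Myog and Tnnt1 under that mean and Igf1r gained. The let-7 median of -0.05 was 0.0026 with matches of 7 bases. Over regions, 0 of 6 members had an exact permutation p under 0.05, 1 did with a mean size factor for each side, and 0 to 1 did when each region was left out in turn. The member past 0.05 was Igf2bp3 with the mean size factor (exact permutation p = 0.0397), Hmga2 without distal region 0.698, Mycn without 0.559, and Igf2bp3 without 0.510 or 0.329 (regions by size factor). The sign of the log2 ratio turned for Igf2bp2 without distal 0.559 (0.0078) and proximal 1.57 (0.0206), and for Myc on the log2(normalized count + 1) scale (-0.21), without distal 0.832 (-0.10), without distal 0.559 (-0.40) and without proximal 1.502 (-0.18). Over all regions left out in turn, the log2 ratio ranged from -0.13 to 0.0206 for Igf2bp2, from -0.40 to 0.37 for Myc, from -0.33 to -0.0262 for Hmga2, from -0.60 to -0.07 for Igf2bp1, from -0.79 to -0.35 for Igf2bp3 and from 0.21 to 0.62 for Mycn. The cause was not tested. No paired analysis was possible because recovered regions carry no number that the sides share. Depth limits Lin28b, Hmga1 and Myc most.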
